A study of Rattus norvegicus with 24 samples.

Results

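Hearts of rats pretreated by acupuncture at Neiguan were compared with hearts of rats pretreated at Yanglingquan, across all genes. The members were the 4 arrays titled NG1 to NG4 and the 4 titled YL1 to YL4, which is 8 of the 24 arrays of the series. The other 16 arrays came from sham rats, from rats with ischaemia-reperfusion injury (IRI) alone, and from injured rats needled at Jiaji or Quchi, with 4 arrays in each of these groups. RNA of myocardium was measured on 1-colour Agilent gene expression arrays. Rats of both compared groups had 7 days of needling at their point and were then given the same injury by closing the left anterior descending coronary artery, and each group held 2 males and 2 females, per the labels. The 2 groups thus differed by label only in the acupoint, and both carried the injury. The strain, the age, the manner of needling, the duration of ischaemia and reperfusion and the part of the heart sampled are not stated in the sources at hand. The labels number the rats within a group without naming separate preparations, so each array counted as 1 animal, and a p-value reflects only how far these samples spread, part of which may be technical.

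Neiguan lies on the inner forearm on the pericardium channel of traditional practice and is used there for complaints of the heart. Yanglingquan lies on the outer leg below the knee on the gallbladder channel. Heart muscle draws most of its energy from fatty acids burned in mitochondria. Its rate and force are set in part by sympathetic nerve fibres, which make noradrenaline with tyrosine hydroxylase, release it onto the muscle, take it back with a transporter and are wrapped by Schwann cells. The RNA came from whole tissue, so fewer cells of a type and less RNA per cell cannot be told apart.

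The level of a gene is given as log2 of its processed intensity relative to the 75th percentile of its array, so a level of 0 marks that percentile. Heart muscle genes were bright on all 8 arrays, with Tnnt2, cardiac troponin T, at 7.59 to 8.37 and Tnni3, cardiac troponin I, at 7.20 to 7.90. On Neiguan arrays 80.1 ± 3.29% (SD, n = 4) of probes were well above background and on Yanglingquan arrays 73.5 ± 2.51%, a difference of 6.59 points (two-sided exact permutation test, p = 0.0571, where the smallest p that 4 against 4 arrays allow is 0.0286). The 75th percentile of processed intensity was 1954 ± 211 in Neiguan and 1431 ± 198 in Yanglingquan (p = 0.0286 by the same exact permutation test). All 8 arrays were scanned on 1 day. The arrays of each group shared 1 scan time, which differed between the groups and was taken to mark a slide. Slide and acupoint thus cannot be told apart in any result that follows. Across genes, which are not independent replicates, pairs within a group correlated at r = 0.980 to 0.992 and pairs across the 2 groups at 0.971 to 0.987, and each array had an array of its own group as its closest.

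Between Neiguan and Yanglingquan, 2658 of 12891 tested genes were called (limma adjusted p under 0.05), which is 20.6% of them. Of these, 1659 (12.9%) were higher and 999 (7.75%) lower in Neiguan. How the calls divided depended on how the arrays were scaled. After quantile normalization, which gives every array the same distribution of values, 1811 genes were called, with 785 (6.09%) higher and 1026 (7.96%) lower. Scaling each array by its median gave 1071 higher and 2827 lower, with the median difference of all genes at -0.19 against 0.01 under the 75th percentile. With normexp background correction 567 were called higher and 1360 lower. The 75th percentile and quantile normalization called 1401 genes (10.9%) in the same direction, 740 (5.74%) higher and 661 (5.13%) lower, and 0 genes were called in opposite directions by them. Genes called by both are described below as called with both scalings. The arrays of the 2 groups did not overlap in 3063 of the 12891 genes (23.8%). Of the 2658 called genes 2157 did not overlap, so lack of overlap adds little to a call. The count of 2658 fell to 1591 without Neiguan replicate 1 and to 1543 without Neiguan replicate 4, and the 999 lower calls fell to 513, 631, 477 and 592 without Neiguan replicates 1, 2 and 4 and Yanglingquan replicate 4.

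**Figure D1:**
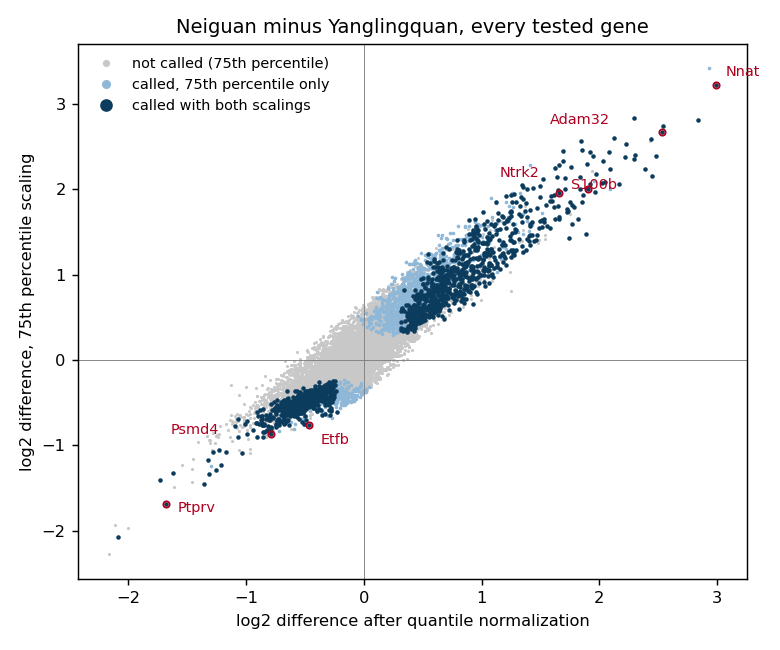
Each point is 1 tested gene, with its log2 difference (Neiguan minus Yanglingquan) after quantile normalization on the horizontal axis and under 75th percentile scaling on the vertical axis. Dark points are the 1401 genes called with both scalings and pale blue points were called under the 75th percentile only. Nnat and Adam32 lie at the far upper right, and Ptprv toward the lower left.

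Under 75th percentile scaling the brightness of a gene moved with its difference. With the genes divided into 4 classes of equal size by brightness, in the faintest class the median difference was 0.42 under the 75th percentile, with 816 genes called higher and 14 lower. In the brightest class it was -0.16, with 99 called higher and 553 (17.2%) lower. After quantile normalization the medians of these classes were 0.03 and -0.06, and with normexp they were -0.18 and -0.14. The part of array brightness in the single results was not tested.

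**Figure D2:**
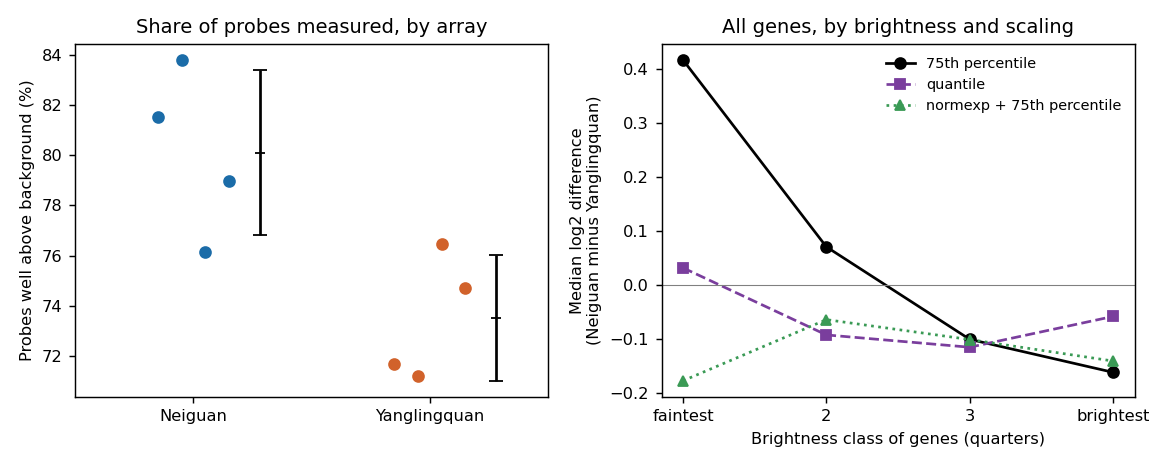
The left panel shows the share of probes well above background on each array (points), with the mean and SD of 4 arrays as bars; 3 of the 4 Neiguan arrays lie above every Yanglingquan array. The right panel shows the median log2 difference (Neiguan minus Yanglingquan) of all genes in 4 classes of mean brightness under 3 treatments of the signal. Under 75th percentile scaling it falls from 0.42 to -0.16, and after quantile normalization it stays between -0.12 and 0.03. With normexp it stays between -0.18 and -0.06.

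Some genes on a list of Schwann and neuronal markers were higher in Neiguan hearts. Whether the hearts differed in nerve fibres or Schwann cells was not tested. Among all genes 12.9% were called higher, and in the faintest class of genes 25.3%, with a median difference of 0.42. Of 18 tested Schwann and neuronal markers, 6 were called higher and 0 lower (7 and 1 at an unadjusted p under 0.05), with a median difference of 0.37 against 0.01 over all genes. Called with both scalings were 5 of them, namely Nnat, S100b, Sox10, Slc6a2 and Th. The list's median was 0.07 after quantile normalization, against -0.06 over all genes (5 members higher and 2 lower at an unadjusted p under 0.05), and -0.05 with normexp, against -0.13. Of the 18 differences, 13 were above 0 and 5 below. On all 8 arrays 13 of the 18 genes were well above background. Its summed level ranged from 16.6 to 18.3 in Neiguan and from 9.78 to 16.9 in Yanglingquan, as multiples of each array's 75th percentile.

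Th encodes tyrosine hydroxylase, the rate-limiting enzyme of noradrenaline synthesis. Its level was 1.75, 1.22, 1.47 and 1.34 in Neiguan and 1.02, 1.02, 0.50 and 0.57 in Yanglingquan. All Neiguan arrays lay above all Yanglingquan arrays, and the male Yanglingquan pair came closest to them. The difference was 0.66 ± 0.17 (SE), or 1.59-fold (limma adjusted p = 0.00964, and 0.69 with adjusted p = 0.00978 after quantile normalization). Th was named after its values were seen. Slc6a2, the transporter that takes noradrenaline back into the nerve ending, stood at -0.80, -0.90, -0.86 and -0.82 in Neiguan and at -1.41, -1.57, -1.77 and -1.47 in Yanglingquan. The Neiguan arrays lay within a narrow band clear of the other group, and the difference was 0.71 ± 0.11 (adjusted p = 0.000369), with 0.88 at a second probe.

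S100b, a calcium-binding protein gene of Schwann cells, was at -2.42, -2.60 and -2.43 in Neiguan, where replicate 1 had no valid spot and was dropped from the fit, and at -4.22, -4.33, -4.76 and -4.39 in Yanglingquan. The groups were far apart, at 1.95 ± 0.32 or 3.88-fold (adjusted p = 0.000564), and at 0.94 with normexp (adjusted p = 0.00714). Sox10, the transcription factor that sets Schwann cell identity, was at 2.80, 2.04, 2.16 and 2.46 in Neiguan and at 1.26, 1.34, 1.14 and 1.73 in Yanglingquan. It too did not overlap between the groups, and differed by 0.99 ± 0.25 (adjusted p = 0.0091). Nnat, an imprinted gene of neurons and endocrine cells, showed the largest difference among the genes that were clear on all 8 arrays, did not overlap and were called with both scalings, at 3.22 ± 0.39 or 9.33-fold (adjusted p = 3.53e-05). It read -0.09, -1.46, -1.60 and -0.37 in Neiguan against -4.62, -3.64, -4.02 and -4.13 in Yanglingquan. No array of one group came near the other, although the second probe of Nnat differed by only 0.86.

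Ntrk2 encodes TrkB, the receptor of brain-derived neurotrophic factor. Its level was 0.06, -0.39, -0.03 and -0.05 in Neiguan and -1.92, -2.67, -2.33 and -1.50 in Yanglingquan. The difference of 1.998 ± 0.20 (adjusted p = 8.55e-06) was many times its error, and it was 1.90 after quantile normalization. Among all genes 12.9% were called higher and 7.75% lower. Of the 14 tested neurotrophins and receptors, 2 were called higher and 1 lower, with a median of -0.06, and 1 higher without Neiguan replicate 1, 2 or 4 or Yanglingquan replicate 1 or 3. After quantile normalization 1 was called higher and 2 lower, with a median of -0.23. The lower one was Nrtn, neurturin, a ligand known in mice to support parasympathetic neurons of the heart, at -0.49 ± 0.15 (adjusted p = 0.0239). Its call ended without Neiguan replicate 1, 2 or 4 or Yanglingquan replicate 4 (adjusted p = 0.0552, 0.0694, 0.0608 and 0.0665) and with normexp (adjusted p = 0.0603).

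**Figure D3:**
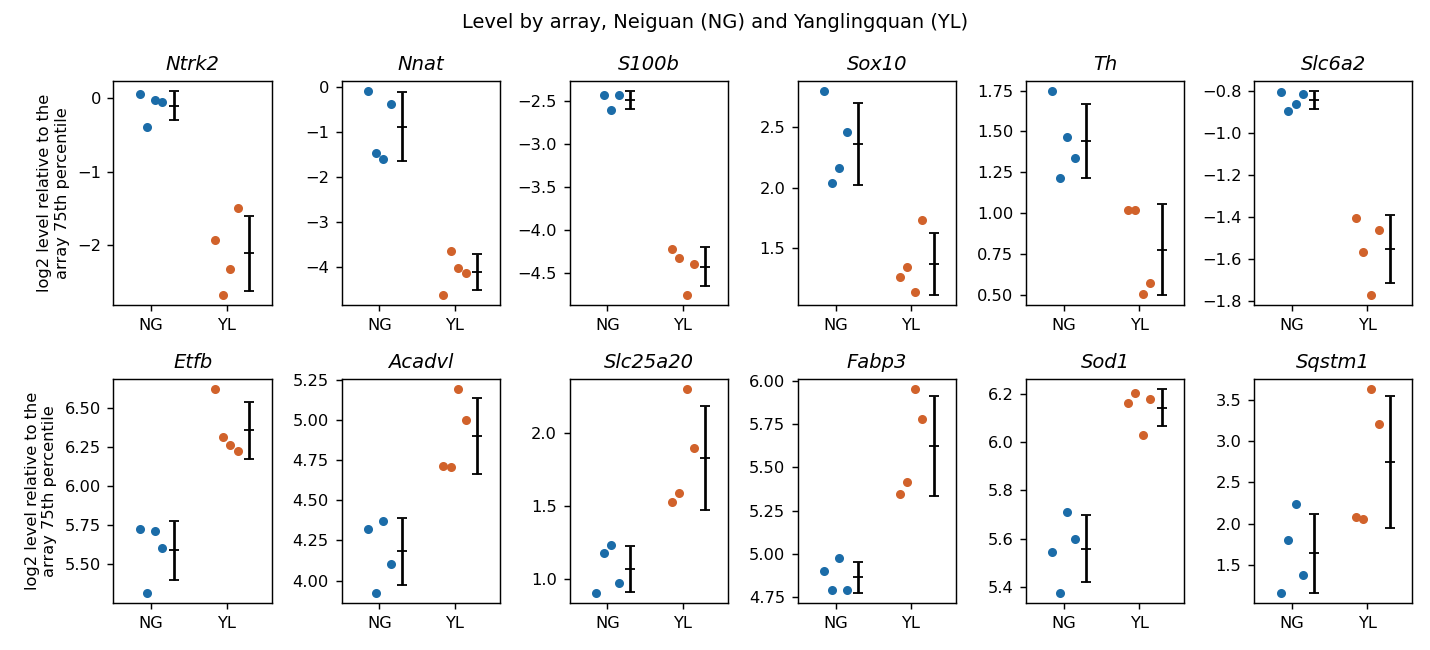
Level of 12 genes on each array, as log2 relative to the array's 75th percentile, in Neiguan (NG, blue) and Yanglingquan (YL, orange), with the mean and SD as bars (n = 4, and 3 for S100b in Neiguan). The 6 genes of the upper row are higher in Neiguan with no overlap, which 23.8% of all tested genes share in either direction. Of the lower row, Sqstm1 overlaps between the groups and the other 5 are lower in Neiguan with no overlap.

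The promoter of Th is shown because cyclic AMP acts on this gene through a known response element close to its start. The 250 bases before the start, credited to RefSeq on GRCr8 at chr1:207508219-207508468 on the minus strand, hold 1 match to the cyclic AMP response element TGACGTCA, in capitals. Of 33469 rat promoter windows of the same length, 1.59% hold these letters, which read alike on both strands.
Th: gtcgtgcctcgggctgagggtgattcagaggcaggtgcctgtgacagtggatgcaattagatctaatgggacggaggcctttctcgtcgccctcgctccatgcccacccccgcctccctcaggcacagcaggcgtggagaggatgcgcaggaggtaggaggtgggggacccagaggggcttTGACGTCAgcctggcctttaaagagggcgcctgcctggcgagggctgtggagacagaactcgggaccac
The match is a description of the letters. The windows of S100b, Per1 and Per3 hold none, which says nothing of the factors. Nnat, Sox10, Slc6a2 and Ntrk2 are named only.

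Of 32 tested fatty acid oxidation genes, which burn the heart's main fuel, 10 were called lower in Neiguan and 0 higher (18 and 0 at an unadjusted p under 0.05), beside the 7.75% of all genes called lower. Their median was -0.45 against 0.01 over all genes, and -0.27 against -0.06 after quantile normalization, where 3 were called lower. The count of lower calls was 4 without Neiguan replicate 2 and 16 without Neiguan replicate 3. These genes are bright, and the brightest class of all genes stood at -0.16, with 17.2% called lower.

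The 3 called with both scalings act at successive steps. Slc25a20, the carrier that brings acylcarnitine across the inner mitochondrial membrane, was at 0.90, 1.17, 1.23 and 0.97 in Neiguan and at 1.53, 1.59, 2.30 and 1.90 in Yanglingquan. No Neiguan array reached the lowest Yanglingquan array, and the difference was -0.76 ± 0.17 (adjusted p = 0.00509, and 0.0158 with -0.72 after quantile normalization). Acadvl, which opens beta oxidation of very long chains, was at 4.32, 3.92, 4.37 and 4.11 in Neiguan and at 4.71, 4.71, 5.20 and 5.001 in Yanglingquan. Its groups were likewise apart, with the female Yanglingquan pair highest, by -0.72 ± 0.13 (adjusted p = 0.00116). Etfb, a subunit of the flavoprotein that passes electrons from this pathway to the respiratory chain, was at 5.72, 5.32, 5.71 and 5.60 in Neiguan and at 6.62, 6.31, 6.26 and 6.22 in Yanglingquan, a difference of -0.76 ± 0.13 (adjusted p = 0.000798). After quantile normalization Etfb stood at -0.46 and Acadvl at -0.52 (adjusted p = 0.00518 and 0.0126).

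Other genes of the list were called under the 75th percentile only. Fabp3, which carries fatty acids through the heart cell, differed by -0.76 ± 0.18 (adjusted p = 0.00644), and by -0.51 after quantile normalization (adjusted p = 0.0742). Acadl, which acts on long chains, stood at -0.48 ± 0.13 (adjusted p = 0.0177), at -0.08 after quantile normalization and at -0.33 without Neiguan replicate 2 (adjusted p = 0.0694), and it was not called when only the 8 arrays were fitted (adjusted p = 0.0689). Cd36, the fatty acid importer, stood at -0.50 ± 0.16 (adjusted p = 0.0342) with overlap of the groups, and at -0.22 after quantile normalization (adjusted p = 0.387) and -0.44 with normexp (adjusted p = 0.0659). Its call ended without Neiguan replicate 1, 2 or 4 or Yanglingquan replicate 1, 3 or 4 (adjusted p = 0.116, 0.0957, 0.0835, 0.0543, 0.0787 and 0.0846). Cpt1b, the gate for fatty acids into mitochondria, was not called, with -0.37 ± 0.14 (adjusted p = 0.0707).

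Promoters of the 3 genes called with both scalings are printed since they belong to 1 pathway and moved together. The motifs searched on both strands were AAGGTCA, the half-site of oestrogen-related receptors that drive this pathway in muscle, and GGGCGG, the GC box bound by Sp factors. AAGGTCA occurs in 3.99% and GGGCGG in 30.5% of the 33469 windows. The windows, from RefSeq on GRCr8, are Etfb at chr1:102988249-102988498 on the plus strand, Slc25a20 at chr8:118243323-118243572 on the plus strand and Acadvl at chr10:55236706-55236955 on the minus strand. Capitals mark the GC box or its reverse complement.
Etfb: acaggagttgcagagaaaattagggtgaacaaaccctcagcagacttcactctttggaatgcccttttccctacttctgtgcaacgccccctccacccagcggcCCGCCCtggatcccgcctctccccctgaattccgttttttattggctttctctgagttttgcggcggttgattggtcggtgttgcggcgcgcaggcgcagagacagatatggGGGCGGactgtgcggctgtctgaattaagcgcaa
Slc25a20: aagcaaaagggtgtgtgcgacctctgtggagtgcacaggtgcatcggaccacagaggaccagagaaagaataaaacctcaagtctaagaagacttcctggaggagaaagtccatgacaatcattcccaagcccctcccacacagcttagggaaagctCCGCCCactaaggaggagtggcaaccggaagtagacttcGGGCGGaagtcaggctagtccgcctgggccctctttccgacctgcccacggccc
Acadvl: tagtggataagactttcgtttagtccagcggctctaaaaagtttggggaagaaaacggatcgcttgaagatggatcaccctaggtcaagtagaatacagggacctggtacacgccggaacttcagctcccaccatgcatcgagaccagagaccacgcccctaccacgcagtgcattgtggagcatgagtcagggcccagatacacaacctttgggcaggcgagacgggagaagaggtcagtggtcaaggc
Etfb and Slc25a20 hold 2 matches each and Acadvl none. AAGGTCA is not in these 3 windows, which says nothing of the receptors.

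Many genes of the respiratory chain were called lower in Neiguan under the 75th percentile, and most of these calls ended after quantile normalization. Of all genes 7.75% were called lower, and of the brightest class 17.2%. Of 32 tested oxidative phosphorylation genes, 20 were called lower and 0 higher (25 and 0 at an unadjusted p under 0.05), with a median of -0.39, and all 32 differences were below 0. After quantile normalization 3 were called and the median was -0.10, against -0.06 over all genes. The count was 12 without Yanglingquan replicate 2 and 13 without Neiguan replicate 2. Called with both scalings were Ndufb8 and Ndufb3, subunits of complex I, and Cox8b, the heart and muscle form of a complex IV subunit. Ndufb8 differed by -0.59 ± 0.12 (adjusted p = 0.00199), with 6.07, 5.71, 6.14 and 6.03 in Neiguan against 6.68, 6.80, 6.37 and 6.47 in Yanglingquan. Cox8b differed by -0.63 ± 0.13 (adjusted p = 0.00243) and Ndufb3, named after its values were seen, by -0.60 (adjusted p = 0.0145). After quantile normalization the 3 stood at -0.28, -0.33 and -0.40 (adjusted p = 0.0176, 0.00988 and 0.0418). Uqcrc2, a core subunit of complex III, differed by -0.44 ± 0.10 (adjusted p = 0.00548), and by -0.22 after quantile normalization (adjusted p = 0.177).

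Of 19 cardiomyocyte markers, 5 were called lower and 0 higher (9 and 0 at an unadjusted p under 0.05). Called lower were 7.75% of all genes and 17.2% of the brightest class. The markers had a median of -0.32, and it was 0.02 after quantile normalization, where none was called (1 higher and 1 lower at an unadjusted p under 0.05). Their summed level was 1794 to 2202 in Neiguan and 2161 to 3067 in Yanglingquan. Tnnc1, cardiac troponin C, was at 6.92, 6.86, 6.97 and 6.93 in Neiguan and at 7.64, 7.82, 7.53 and 7.41 in Yanglingquan. The groups were clear of each other by -0.68 ± 0.13 (adjusted p = 0.00163), and the difference was -0.27 after quantile normalization (adjusted p = 0.113). Ckm, muscle creatine kinase, and Pln, the brake of the calcium pump, differed by -0.55 ± 0.09 and -0.49 ± 0.13 (adjusted p = 0.000656 and 0.0116), and by -0.23 and -0.11 after quantile normalization (adjusted p = 0.197 and 0.277). Myh7, the slow myosin heavy chain, differed by -0.50 ± 0.14 (adjusted p = 0.0174), by -0.42 without Yanglingquan replicate 4 (adjusted p = 0.0606) and by -0.15 after quantile normalization (adjusted p = 0.436).

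Of 28 tested antioxidant genes, 6 were called lower and 1 higher, beside 7.75% and 12.9% of all genes and 17.2% of the brightest class called lower. The list's median was -0.33. After quantile normalization 3 were called lower and 0 higher (11 and 1 at an unadjusted p under 0.05), with a median of -0.21. The lower calls numbered 3 without Neiguan replicate 1. Sod1, the cytosolic superoxide dismutase, was at 5.55, 5.38, 5.71 and 5.60 in Neiguan against 6.16, 6.20, 6.03 and 6.18 in Yanglingquan, a separation of -0.59 ± 0.12 (adjusted p = 0.00242). Prdx6, a peroxiredoxin that repairs oxidised lipids, differed by -0.53 ± 0.11 (adjusted p = 0.00281), and Gstm1, a glutathione transferase named after its values were seen, by -0.47 (adjusted p = 0.0455). These 3 were called with both scalings, with -0.29, -0.46 and -0.49 after quantile normalization (adjusted p = 0.0286, 0.0057 and 0.0452). The higher one was Slc7a11, the cystine importer, at 0.64 ± 0.14 (adjusted p = 0.00341), with 0.38 after quantile normalization and 0.17 with normexp (adjusted p = 0.0562 and 0.263).

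Other energy and stress genes were mixed. Their counts stand beside 7.75% of all genes called lower, 12.9% of all genes called higher and 17.2% of the brightest class called lower. Of 33 glycolysis and hypoxia response genes, 7 were called lower and 3 higher, with a median of -0.18. After quantile normalization 0 were called lower and 1 higher (3 and 4 at an unadjusted p under 0.05), with a median of 0.01. The lower calls numbered 3 without Neiguan replicate 1 or 4 or Yanglingquan replicate 2 and 4 without Neiguan replicate 2 or Yanglingquan replicate 1, and the higher calls 1 without Neiguan replicate 2 or 4 or Yanglingquan replicate 3 or 4. Gapdh, the glycolytic dehydrogenase, differed by -0.53 ± 0.09 (adjusted p = 0.00101, and 0.225 at -0.19 after quantile normalization), and Pdk2, a brake on glucose oxidation, by -0.66 ± 0.16 (adjusted p = 0.00905, and 0.0974 at -0.49 after quantile normalization). Hk2, which traps glucose and was named after its values were seen, was the gene of this list called with both scalings, at 0.86 (adjusted p = 0.0299). It stood at 0.80 after quantile normalization (adjusted p = 0.0485). Of 19 heat shock genes, 5 were lower and 1 higher, with a median of -0.14, and after quantile normalization 1 was lower and 1 higher, with a median of -0.0079. The lower calls numbered 1 without Neiguan replicate 4, 2 without Neiguan replicate 2 or Yanglingquan replicate 2, and 3 without Neiguan replicate 1 or Yanglingquan replicate 1, 3 or 4. Hsf1, the master factor of the heat shock response, was called with both scalings at -0.40 ± 0.09 (adjusted p = 0.00574), and Hspb7, a small heat shock protein gene of heart muscle that was also named after its values were seen, at 0.80 ± 0.25 (adjusted p = 0.0291). The Hspb7 call ended without Neiguan replicate 1 or 4 or Yanglingquan replicate 1 or 2 (adjusted p = 0.103, 0.0722, 0.07 and 0.0521). Of 23 autophagy genes, 5 were called lower (11 at an unadjusted p under 0.05), and 0 without Neiguan replicate 4 or Yanglingquan replicate 4, 1 without Neiguan replicate 1 or Yanglingquan replicate 3 and 3 without Neiguan replicate 2. Their median was -0.31, and after quantile normalization 1 was called lower, with a median of -0.22. Sqstm1, the cargo receptor p62, stood at -1.10 ± 0.31 (adjusted p = 0.019), and its second probe at 0.13. Its groups overlapped, with 3.63 and 3.20 in the female Yanglingquan pair against 2.08 and 2.05 in the males, and its call ended without Neiguan replicate 1 or 4 or Yanglingquan replicate 3 or 4 (adjusted p = 0.0608, 0.0701, 0.0714 and 0.053) and when only the 8 arrays were fitted (adjusted p = 0.0635).

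**Figure D4:**
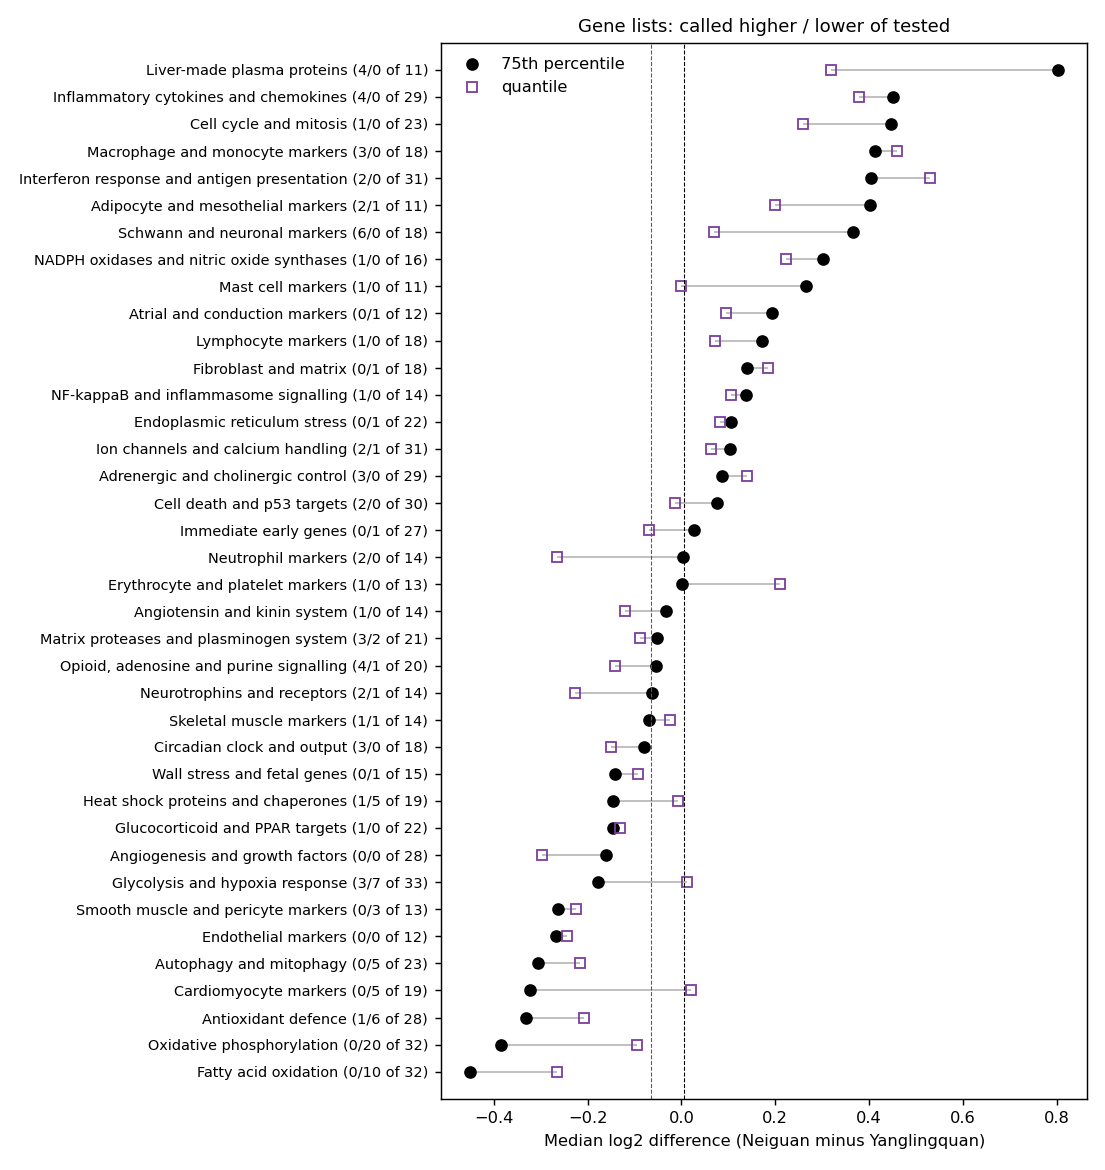
Median log2 difference (Neiguan minus Yanglingquan) of each gene list under 75th percentile scaling (filled circles) and after quantile normalization (open squares), with dashed lines at the medians of all genes, 0.01 and -0.06. Beside each name stand the members called higher and lower of those tested. Fatty acid oxidation has the lowest circle, at -0.45, and the cardiomyocyte square lies at 0.02.

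Beyond these lists, the largest higher genes among those well above background on all 8 arrays, with no overlap and called with both scalings, came from many functions. After Nnat followed Cacng7, an accessory subunit of calcium channels and glutamate receptors, at 2.74 ± 0.42 (adjusted p = 0.000497), though Neiguan replicate 3 and Yanglingquan replicate 3 had no valid spot. Adam32, a testis-expressed member of the ADAM family, read -0.20, -0.54, -0.31 and -0.03 in Neiguan against -3.10, -3.17, -2.47 and -3.01 in Yanglingquan. That is 2.67 ± 0.34 or 6.35-fold (adjusted p = 5.68e-05), with the groups far apart. Polm, a DNA polymerase of end joining, was bright, at 4.39, 4.41, 4.02 and 5.30 against 2.53, 2.30, 1.81 and 1.91, a difference of 2.39 ± 0.46 (adjusted p = 0.00168). Cyp1b1, a steroid- and xenobiotic-metabolising P450 enzyme, was higher by 2.01 ± 0.35, and Abcg3l3, an ABC transporter family gene, by 2.37 ± 0.21 (adjusted p = 0.000831 and 2.64e-06). Pla2g12b, a catalytically inactive phospholipase A2 relative, was 4.01-fold and B3gat2, a glucuronyltransferase, 3.998-fold higher (adjusted p = 1.09e-05 and 0.00222). With normexp the log2 difference of Pla2g12b was 1.08 in place of 2.002.

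Several of these rest on incomplete or discordant probes. Catsperg, a subunit of the sperm calcium channel, and Fbxo27, an F-box protein gene, were higher by 2.36 ± 0.32 and 2.09 ± 0.47 (adjusted p = 0.000224 and 0.00492), with no valid spot on Yanglingquan replicate 3. Zfp609, a zinc finger gene, stood at 2.59 ± 0.28 (adjusted p = 1.09e-05) while its second probe stood at 0.45. Tmem72, a membrane protein gene, stood at 2.07 ± 0.26 (adjusted p = 4.93e-05) and its second probe at 0.30.

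Some genes were measured in Neiguan and lost in the background in Yanglingquan. Of the called genes, 105 were well above background on all 4 Neiguan arrays and on 0 Yanglingquan arrays, and 0 the other way round. Called or not, 530 genes were well above background on some Neiguan arrays and on 0 Yanglingquan arrays, and 21 the other way round. The filter lets a gene in through the Neiguan arrays alone. There 80.1% of probes were well above background, against 73.5% in Yanglingquan, and the part of array brightness in this count was not tested. For these 105 genes the fold is a lower bound under 75th percentile scaling only. Each Yanglingquan array entered with its faintest well-measured signal, or with the gene's own value where that was higher. It does not bound the fold under another background correction, and the normexp differences given below are smaller. Twist2, a basic helix-loop-helix factor of mesenchymal cells, was at least 2.89-fold higher (adjusted p = 9.65e-06). For Chst5, a sulfotransferase, and Ppp1r1c, an inhibitor of protein phosphatase 1, the bounds were at least 2.82-fold and at least 2.81-fold (adjusted p = 1.25e-05 and 0.00123). For Zmat4, a zinc finger gene, and Prss40, a serine protease gene without a valid spot on Neiguan replicate 1, they were at least 2.74-fold and at least 2.65-fold. With normexp the fitted differences of Twist2 and Chst5 were 0.40 and 0.42 (adjusted p = 0.0419 and 0.0378). Those of Ppp1r1c, Zmat4 and Prss40 were 0.22 to 0.27 and none passed (adjusted p = 0.14 to 0.269).

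A second faint group was the receptors of smell, pheromone, taste and trace amines, which are known from sensory tissue. Of 576 tested, 233 were called higher and 0 lower in Neiguan, with a median of 0.64. In the faintest class of all genes 25.3% were called higher, with a median of 0.42, and of all genes 12.9%. Of the 576, 319 were well above background on all 8 arrays. After quantile normalization 85 were higher and 2 lower, with a median of 0.32. With normexp their median was -0.03, against -0.13 over all genes.

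Other genes called with both scalings and measured on all 8 arrays without overlap were lower in Neiguan. Ptprv, a receptor-type tyrosine phosphatase gene, was at -0.06, -0.60, 0.32 and -1.86 against 1.09, 1.40, 0.65 and 1.43, a difference of -1.69 ± 0.37 (adjusted p = 0.00429).

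A further group of lower genes differed by -0.76 to -1.09. Psmd4, the ubiquitin receptor of the proteasome, was at 1.87, 2.17, 2.29 and 2.06 in Neiguan against 2.86, 2.85, 3.07 and 3.07 in Yanglingquan, a gap of -0.86 ± 0.16 (adjusted p = 0.00133). Ipo13, a nuclear transport receptor, differed by -0.84 ± 0.13 and Nudt17, a Nudix hydrolase gene, by -0.86 ± 0.14 (adjusted p = 0.000369 and 0.000593). Gba2, the non-lysosomal glucosylceramidase, stood at -0.82 ± 0.17, Plag1, a zinc finger transcription factor, at -0.79 ± 0.17 and Pnrc1, a nuclear receptor coactivator, at -0.83 ± 0.20 (adjusted p = 0.00292, 0.0041 and 0.00758). Mettl7a, a methyltransferase-like gene, stood at -0.79 ± 0.20, with -0.43 at its second probe. Abcc1, the export pump MRP1, stood at -0.83 ± 0.17, while its other 2 probes averaged 0.08 (adjusted p = 0.00875 for Mettl7a and 0.00235 for Abcc1).

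The last 4 of these calls each leaned on single arrays. Myh7b, a slow myosin relative, stood at -0.84 ± 0.25 (adjusted p = 0.0233), and its call ended without Neiguan replicate 3 or 4 or Yanglingquan replicate 3 or 4 (adjusted p = 0.0571, 0.0567, 0.0692 and 0.0701). Efna4, an ephrin ligand gene, stood at -1.09 ± 0.30 (adjusted p = 0.0154), and at adjusted p = 0.0623 without Neiguan replicate 4 and 0.0551 without Yanglingquan replicate 4. Ypel3, a growth arrest gene, and Trim50, a ubiquitin ligase gene, stood at -0.79 ± 0.21 and -0.76 ± 0.21 (adjusted p = 0.0139 and 0.0147), and without Yanglingquan replicate 3 at -0.61 and -0.58 (adjusted p = 0.0535 and 0.056).

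A few immune genes were called higher in Neiguan, at shares near the 12.9% of all genes. Of 18 macrophage and monocyte markers, 3 were called higher and 0 lower (6 and 0 at an unadjusted p under 0.05), with a median of 0.41, or 0.46 after quantile normalization. The list's summed level was 78.5 to 114 in Neiguan and 47.9 to 91.5 in Yanglingquan. Csf1r, the receptor of macrophage colony-stimulating factor, was at -0.85, -0.82, -0.96 and -0.85 in Neiguan and at -1.25, -1.43, -1.48 and -1.26 in Yanglingquan. Its groups did not overlap, at 0.49 ± 0.10 (adjusted p = 0.0034), with 0.12 at the second probe and 0.29 with median scaling. It was the one macrophage marker called with both scalings, and the list's higher calls numbered 1 when any one of Neiguan replicates 1, 2 and 4 and Yanglingquan replicates 3 and 4 was left out.

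Elane, neutrophil elastase, was at 0.65, -0.58 and 0.27 in Neiguan, where replicate 3 had no valid spot, and at -2.59, -2.24, -2.46 and -1.98 in Yanglingquan. The difference was 2.40 ± 0.50 (adjusted p = 0.00334), while the 14 neutrophil markers had a median of 0.0034 and -0.27 after quantile normalization. Cd8b, a chain of the cytotoxic T cell coreceptor, was the one called lymphocyte marker of 18 (2 without Yanglingquan replicate 4), at 0.62 ± 0.17 (adjusted p = 0.0185, and 0.0644 with median scaling). RT1-Bb, a class II antigen presentation gene, stood at 1.67 ± 0.52 (adjusted p = 0.0282), with 0.71 at its second probe. Its Yanglingquan arrays ran from -2.37 to 1.02, overlapping the Neiguan range of 0.87 to 1.51, and it stood at 0.97 without Yanglingquan replicate 4 (adjusted p = 0.102). Its call also ended without Neiguan replicate 1, 3 or 4 or Yanglingquan replicate 1 (adjusted p = 0.0608, 0.0562, 0.0717 and 0.0718) and when only the 8 arrays were fitted (adjusted p = 0.12).

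Of 29 inflammatory cytokines and chemokines, 4 were called higher, beside 12.9% of all genes, and 0 lower (10 and 0 at an unadjusted p under 0.05), with a median of 0.45. After quantile normalization none was called (6 higher at an unadjusted p under 0.05), with a median of 0.38. The count was 1 without Neiguan replicate 4 or Yanglingquan replicate 3 or 4, 2 without Neiguan replicate 2 and 6 without Yanglingquan replicate 1. Il10, the anti-inflammatory cytokine, was at -3.02, -2.72, -2.96 and -2.97 in Neiguan and at -3.50, -3.30, -4.00 and -3.74 in Yanglingquan. These did not overlap, and differed by 0.72 ± 0.19 (adjusted p = 0.0146, and 0.0523 without Neiguan replicate 2). With quantile normalization and normexp the difference was 0.49 and 0.29 (adjusted p = 0.0978 and 0.146). Csf3, which calls up neutrophils, Nos2, the inducible nitric oxide synthase, and Selp, P-selectin, were the other 3, at 0.80 ± 0.25, 0.56 ± 0.18 and 1.42 ± 0.43 (adjusted p = 0.0275, 0.0315 and 0.025). Their groups overlapped, and Selp was well above background on only 2 of the 4 Yanglingquan arrays, so its size is uncertain. None of the 3 was called after quantile normalization (adjusted p = 0.0683, 0.0767 and 0.183), and Selp stood at 0.21 with normexp. The Csf3 call ended without Neiguan replicate 2 or 4 or Yanglingquan replicate 3 or 4 (adjusted p = 0.0798, 0.0571, 0.108 and 0.075). The Selp call ended without Neiguan replicate 1 or 4 or Yanglingquan replicate 3 or 4 (adjusted p = 0.0937, 0.0758, 0.0683 and 0.0554). The Nos2 call held without Neiguan replicate 2 or Yanglingquan replicate 2 and ended without any of the other 6 arrays (highest adjusted p = 0.109). Il6 ran from -2.86 to -0.27 in Neiguan and from -3.14 to -0.85 in Yanglingquan, and its difference of 0.75 ± 0.54 did not pass (adjusted p = 0.334). Socs3, the brake on cytokine signalling, stood at 0.45 ± 0.16 (adjusted p = 0.0541).

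Of 18 tested clock genes, 3 were called higher and 0 lower in Neiguan, near the 12.9% of all genes called higher. These counts were the same with both scalings and without any single array, while the list's median was -0.08. Per1, a clock repressor that also answers glucocorticoids, was at -2.90, -3.10, -2.92 and -2.75 in Neiguan and at -3.57, -3.71, -3.65 and -3.30 in Yanglingquan. It did not overlap, at 0.64 ± 0.14 (adjusted p = 0.00337), but stood at 0.22 with normexp (adjusted p = 0.152). Per3, another repressor, was at 1.06, 0.45, 0.52 and 0.53 against 0.47, 0.28, -0.33 and -0.29, a difference of 0.61 ± 0.15 (adjusted p = 0.00909, and 0.0515 with median scaling) with overlap of the groups, and its other 2 probes averaged 0.01. Csnk1e, a kinase that marks the Per proteins for breakdown, stood at 2.07 ± 0.26 (adjusted p = 5.87e-05) with no valid spot on Yanglingquan replicate 3, and its other 2 probes averaged 0.73. Bmal1, the core activator, was at -1.29 to -0.98 in Neiguan and at -1.48 to -0.24 in Yanglingquan, and did not pass (-0.35 ± 0.37, adjusted p = 0.531).

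Receptors, channels and transporters that set the heart's rate and force gave single calls. Adra2b, an alpha-2 adrenoceptor, was at 1.08, 0.71, 0.94 and 0.78 in Neiguan and at 0.69, 0.61, 0.01 and 0.06 in Yanglingquan, a difference of 0.54 ± 0.14 (adjusted p = 0.012, and 0.0741 with median scaling) in which Neiguan replicate 2 nearly touched Yanglingquan replicate 1. Adra1a, an alpha-1 adrenoceptor of heart muscle, stood at 1.05 ± 0.32 (adjusted p = 0.0268), and its call ended without Neiguan replicate 1 or 4 or Yanglingquan replicate 2 or 4 (adjusted p = 0.0652, 0.085, 0.0552 and 0.0641). Oprd1, the delta opioid receptor, was at -0.74, -0.99, -0.90 and -0.86 against -1.36, -1.45, -1.50 and -1.44, with no overlap, and was higher by 0.57 ± 0.14 (adjusted p = 0.0102, and 0.0567 with median scaling). Slc29a1, which takes up adenosine, stood at -0.41 ± 0.12 (adjusted p = 0.0235), and without Neiguan replicate 2 or Yanglingquan replicate 4 at adjusted p = 0.0659 and 0.077. With normexp it was at adjusted p = 0.0552.

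Fkbp1b, calstabin 2, which steadies the calcium release channel, was at 1.46, 0.65, 1.16 and 0.97 in Neiguan and at 0.19, 0.23, -0.20 and -0.20 in Yanglingquan. It lay higher on every Neiguan array, by 1.05 ± 0.19 (adjusted p = 0.00104). Cacna1g, a T-type calcium channel of pacemaker tissue, was higher by 1.76 ± 0.34 (adjusted p = 0.0018), with 0.34 at its second probe. Kcnj8, the pore of the vascular ATP-sensitive potassium channel, was lower, at 1.88, 1.78, 1.92 and 1.82 against 2.16, 2.33, 2.46 and 2.69, a difference of -0.56 ± 0.14 (adjusted p = 0.00866). All 4 Neiguan arrays lay in a narrow band below the other group. These 3 were called with both scalings.

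Single genes of the cell cycle, cell death, matrix protease and plasminogen, and skeletal muscle lists were also called with both scalings. Cdc20, which starts the exit from mitosis, was at 2.31, 1.69, 2.01 and 2.07 in Neiguan and at 1.24, 1.42, 0.99 and 1.39 in Yanglingquan. The groups were apart by 0.76 ± 0.16 (adjusted p = 0.00263), and it was the one called gene of 23 cell cycle genes. The list's median of 0.45 was 0.26 after quantile normalization, 0.17 without Neiguan replicate 2, 0.28 without Yanglingquan replicate 3 and 0.75 without Neiguan replicate 1. Bid, which links death receptors to mitochondria, was higher by 1.27 ± 0.31 (adjusted p = 0.00748). Plg, plasminogen, was higher by 0.57 ± 0.14 (adjusted p = 0.00995, and 0.0785 with median scaling). Mybph, whose protein binds myosin, was well above background on all 4 Neiguan and 0 Yanglingquan arrays, and its fitted difference was 0.15 with normexp (adjusted p = 0.404).

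Endothelial markers and angiogenesis genes gave no call under the 75th percentile. By limma, 0 of 12 and 0 of 28 were called, with 1 lower in the first and 1 higher and 1 lower in the second at an unadjusted p under 0.05, and medians of -0.27 and -0.16. After quantile normalization 1 gene of each list was called lower, as was 1 endothelial marker without Neiguan replicate 3 or Yanglingquan replicate 2 and 1 angiogenesis gene without Yanglingquan replicate 1.

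The other 4 groups placed these differences on a wider scale. By scan time they lay on other slides, and they shared the fit. Quchi had more than 1 scan time, and whether it lay on more than 1 slide is not known. Sham, IRI and Quchi replicate 1 were also scanned on other days than the remaining arrays, so slide, scan day and group cannot be told apart here, and the values are a description. For Ntrk2 the mean was 0.69 ± 0.18 (SD, n = 4) in sham, 1.08 ± 0.14 in IRI, -0.08 ± 0.14 in Jiaji and 0.98 ± 0.38 in Quchi. Every array of these 4 groups lay above every Yanglingquan array. For Nnat the means were -2.04 in sham, -1.12 in IRI, -0.20 in Jiaji and -0.74 in Quchi, all above the -4.10 of Yanglingquan. For Etfb the highest mean of the 6 groups was the 6.35 of Yanglingquan, and the other 5 lay from 5.57 to 5.996, with the Neiguan mean at 5.59. Th and Slc6a2 were arranged otherwise. The Th mean was -0.31 in sham, 0.16 in IRI, 1.34 in Jiaji and -0.07 in Quchi, against 1.44 in Neiguan and 0.78 in Yanglingquan. Slc6a2 averaged -1.68 in sham, -1.55 in IRI and -1.23 in Quchi, near or above the -1.55 of Yanglingquan, whereas Jiaji at -0.71 and Neiguan at -0.84 were higher.

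**Figure D5:**
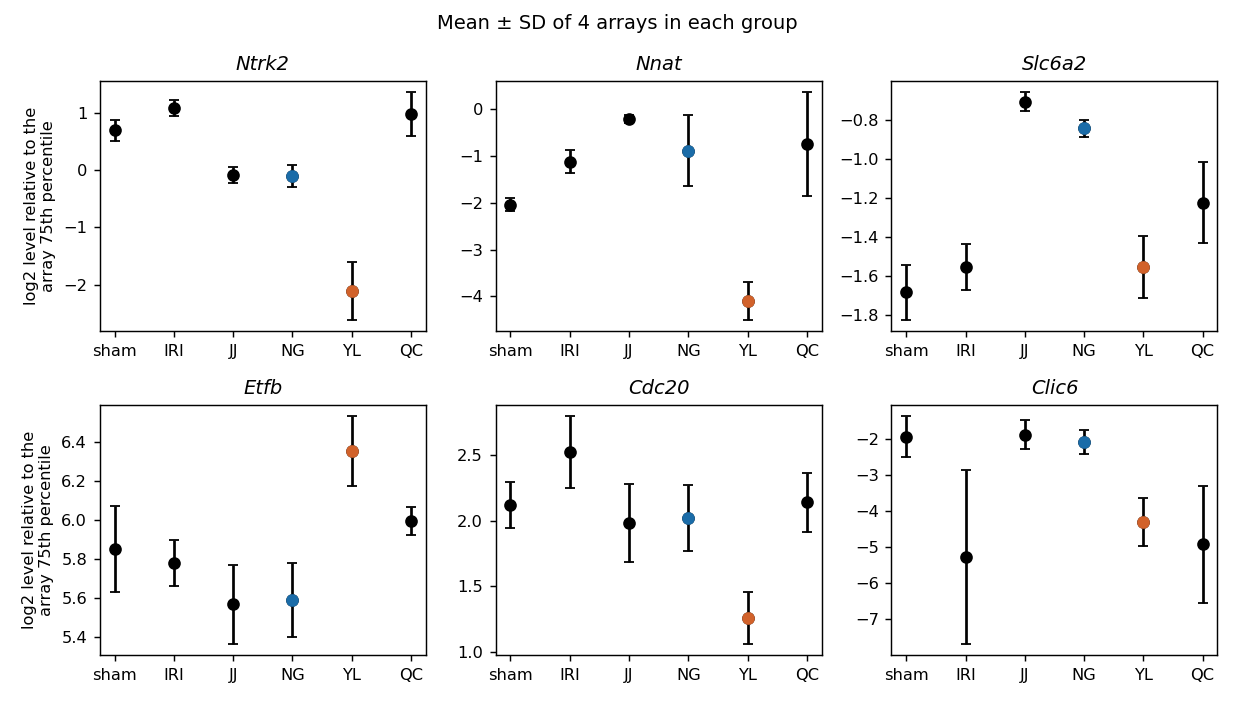
Mean level with SD of 4 arrays for 6 genes in all 6 groups, as log2 relative to the array's 75th percentile, in sham, injury alone (IRI), Jiaji (JJ), Neiguan (NG, blue), Yanglingquan (YL, orange) and Quchi (QC). For Ntrk2 and Nnat the Yanglingquan mean is the lowest of the 6, for Etfb it is the highest, and Slc6a2 is highest in Jiaji and Neiguan. Clic6, an atrial marker, was not called between Neiguan and Yanglingquan.

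Whether the difference between the acupoints itself differed between females and males was tested across 12874 genes. Only Ccr10, a chemokine receptor gene, was called (0.00777% of genes). The difference between Neiguan and Yanglingquan was -0.91 in males and 1.97 in females, an interaction of 2.88 ± 0.34 (adjusted p = 0.00528). Ccr10 was faint, at -4.97 to -3.65 in Neiguan and -6.06 to -3.63 in Yanglingquan. The lowest of these, female Yanglingquan replicate 3, was not well above background, so the female difference and the interaction are uncertain in size, and each cell of this test held 2 arrays.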

How the data were processed

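Myocardial RNA of 24 rats was measured on 1-colour Agilent arrays. The scanner files deposited by the authors hold spot intensity values, background-subtracted and detrended by Feature Extraction 11.0.1.1 per the file headers. Version 10.7.3.1 is named instead in the submitters' processing notes. The other values used, spot flags of 0 or 1, were set by that program per the file headers. The authors' deposited table of log2 values was an alternative; its columns share quartiles up to a median of 7.20, and it followed the log2 processed intensity at r of 0.997 or more, while the tool behind it is not stated in the sources at hand.

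Per array, 1377 control spots were left out, as were 8733 outlier spots over all arrays, with 0 saturated. Averaging replicate spots left 30367 probes, of which 18005 were named through accessions in a RefSeq gene table. A probe had to be well above background on every array of 1 group or more, and the brightest passing probe stood for its gene. Log2 processed intensity minus the array's 75th percentile was fitted in R 4.3.3 with limma 3.58.1 (lmFit, eBayes) over 24 arrays with group and sex and 17 residual degrees of freedom, and Benjamini-Hochberg adjustment ran over 12891 genes at 0.05. All p-values are two-sided. In 231 genes an array had no valid spot and was dropped from that gene's fit. The number of arrays limits the precision.

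Genes named were the 15 higher and 15 lower of largest difference that were called with both scalings, did not overlap and were well above background on all 8 arrays; up to 4 called genes of smallest p per list; up to 6 per direction measured on 4 arrays of 1 group and 0 of the other; a panel of 46 genes; and genes called for the interaction with sex. Unannotated loci and sensory receptors were only counted, and some genes that met these rules are not reported here. Of 820 genes on 38 lists, 737 were tested. The members, lists and panel were chosen with earlier results of these data known, and lists are described by counts and medians only. A gene's second probe is given where it has the other sign or under 50% of the size.

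On data simulated for this comparison over 12891 genes, 15 of 67 genes changed by 0.5 on the log2 scale were recovered, 55 of 67 changed by 1 and 65 of 66 changed by 2, with 7 false calls. The simulated noise was independent between arrays, with no slide effect and no shift with brightness. These counts therefore do not give the error rate of the calls in the real data. Alternatives covered scaling, background correction, filters, samples, covariates and arrays left out. Normexp used an offset of 50 and the median spot signal.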

Additional observations from a re-analysis of the deposited data

Results flagged for a closer look

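In 4 genes, 1 array of a group of 4 stood far from the other 3 by Dixon's test, out of 192 groups tested, where chance gives about 1 in 20. Myh7, the slow myosin heavy chain, was at 7.57 in Yanglingquan replicate 4, above its group. Cd8b, the T cell coreceptor gene, was at -1.63 in Neiguan replicate 3, below its group. The clock gene Per3 was at 1.06 in Neiguan replicate 1, above the rest, and Ppp1r1c was at -4.86 in Neiguan replicate 3, below the rest. Ccr10, the chemokine receptor gene, stood out because its difference between the acupoints ran in opposite directions in males and females, with an interaction of 2.88 ± 0.34 on the log2 scale (limma adjusted p = 0.00528). Its female Yanglingquan replicate 3 was not well above background.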

How the results depend on the processing

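The number of called genes was 2494 with the percentile taken over detected probes, 2415 without a filter, 2114 with the strict filter, 2255 with only the 8 arrays, 2560 without the sex term and 2691 with a trended prior. The authors' deposited values called 1710 genes, 821 of them higher in Neiguan. Testing every probe called 5937 of 25145 probes, 4097 higher and 1840 lower. Higher calls numbered 785 with quantile normalization, 1071 with median scaling and 567 with normexp, and lower calls 2827 with median scaling and 547 with only the 8 arrays. Leaving out 1 array gave 1543 to 2332 calls, 1066 to 1480 higher and 477 to 852 lower. The interaction with sex called 11 genes with quantile normalization, 5 with the strict filter and 1 to 16 with 1 array left out. The share of probes measured differed by 4.43 points when probes positive and significant against background were counted (exact permutation p = 0.0286), and by 5.36 to 7.90 points with 1 array left out. A change of sign occurred in 2 genes. Atp5f1a, an ATP synthase subunit gene called at -0.32, stood at 0.044 with quantile normalization and 0.043 with the authors' values, and Ccr10, at 0.53 without a call, stood at -0.031 with normexp. The cause was not tested. The list counts without single arrays were chosen after seeing the data.

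With the replicate number as a block, 2665 genes were called, 1635 higher and 1030 lower. The deviations of same-numbered arrays correlated at 0.11, -0.31, -0.12 and 0.12, so the numbers were not taken as a pairing. Slide, taken from the scan time, as a random block called 4579 genes, 2555 higher and 2024 lower. The estimated correlation of -0.10 rests on Quchi, the 1 group with more than 1 scan time, so this does not separate slide from acupoint. Some faint genes were not well above background on the Yanglingquan arrays, which leaves the size of their differences uncertain. The local background itself was lower there, at a mean of 18.3 against 21.0 in Neiguan.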

Other observations

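Among the tissue lists, 3 of 13 smooth muscle and pericyte markers were called lower in Neiguan (median -0.26, and -0.22 after quantile normalization), with summed levels of 68.5 to 76.6 in Neiguan and 87.1 to 91.2 in Yanglingquan. Among all genes 7.75% were called lower and 12.9% higher. Of 11 liver-made plasma protein genes, 4 were called higher (median 0.80) and none after quantile normalization (2 higher at an unadjusted p under 0.05), and 2 without Neiguan replicate 1 or 4 or Yanglingquan replicate 2 or 4. The call of Alb, serum albumin, leaned on Neiguan replicate 1, at 1.47, where the other Neiguan arrays lay at -4.69 to -3.07 and the Yanglingquan arrays at -7.46 to -4.91. It was well above background on only 1 of the 4 Yanglingquan arrays, so the size is uncertain. Its fitted difference of 3.42 ± 1.17 (limma adjusted p = 0.0437) was 2.25 without that array (adjusted p = 0.175), and its call ended in 6 of 8 such repeats (adjusted p = 0.0518 to 0.175) and with quantile normalization (2.93, adjusted p = 0.097).

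The female and male Yanglingquan arrays, 2 of each, lay apart for some fuel genes. In this group the males lay at slide positions 1 and 2 and the females at 3 and 4, so sex and position cannot be told apart. The test of whether the acupoint difference differed between the sexes called only Ccr10. Ucp3, a mitochondrial carrier gene switched on by fatty acids, was at 2.28 and 2.06 in the females and at 0.04 and 0.26 in the males, and Pdk4, a brake on glucose oxidation, at 2.50 and 1.59 against 0.21 and 0.69. Neither passed between the acupoints (adjusted p = 0.128 and 0.359). Adra1d, an alpha-1 adrenoceptor gene, went the other way, at -3.24 and -2.39 in the females and -0.40 and -1.03 in the males (adjusted p = 0.0547 between the acupoints).

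The other lists held few calls, and several of these counts changed when single arrays were left out (0 to 6 higher for interferon and antigen presentation, 2 to 4 for opioid, adenosine and purine, 1 to 4 for adrenergic and cholinergic, 1 to 4 for matrix protease and 0 to 2 for NF-kappaB and for erythrocyte and platelet genes). Of the mast cell markers 3 were called without Yanglingquan replicate 1 and 0 without any one of the other 7 arrays. Of 20 opioid, adenosine and purine genes 4 were called higher and 1 lower, of 29 adrenergic and cholinergic genes 3 higher, of 21 matrix protease and plasminogen genes 3 higher and 2 lower, and of 31 ion channel and calcium genes 2 higher and 1 lower. Of 11 adipocyte and mesothelial markers 2 were higher and 1 lower, and of 31 interferon and antigen presentation genes and 30 cell death genes 2 each were higher. These counts stand beside 12.9% of all genes called higher and 7.75% called lower. A single gene was called in the lists of atrial, fibroblast, mast cell, erythrocyte and platelet, immediate early, NF-kappaB, angiotensin, wall stress, endoplasmic reticulum stress, NADPH oxidase and glucocorticoid genes, and 1 in each direction among skeletal muscle markers.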
